A study of Mus musculus with 12 samples.

Results

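The genes described here fold and mature secreted proteins in the endoplasmic reticulum (ER), with those that finish procollagen. The set holds 39 genes, chosen by gene symbol from knowledge of the pathway, with earlier results of these data known. All 39 were found among the 55573 genes of the count table, and all 39 were among the 19174 genes with enough counts to be tested. By role they are 11 lumenal chaperones and their partners, 4 protein disulfide isomerases, 4 stress sensors and effectors (Atf6, Ern1, Eif2ak3 and Xbp1), 2 translocon subunits, 7 genes of ER-associated degradation, and 11 genes of collagen maturation.

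RNA was sequenced from mouse embryonic fibroblasts (MEFs) of C57BL/6 embryos at E13.5 that carry doxycycline-inducible Oct4, Sox2, Klf4 and cMyc (OSKM), the factors that reprogram somatic cells to pluripotency. MEFs of 3 embryos, called clones 1, 2 and 3, each gave 1 library to each of 4 groups. The MEF group received neither agent. The OSKM group received doxycycline at 1 µg/ml, and the MEF+B12 and OSKM+B12 groups differed from these 2 groups only by vitamin B12 at 2 µM. All cells, the uninduced ones included, carried the same transgenes and were kept for 72 h in the medium used for induced pluripotent stem cells, so that the doxycycline is part of every induction difference. The library titles give a different year for clone 1 than for clones 2 and 3, and the clone and the year cannot be told apart there.

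The 12 libraries held 56971244 to 79236795 counted read pairs, and none was identical to another. Induction was checked on Pou5f1, which encodes Oct4, and on Sox2. Pou5f1 reached 19.4, 18.5 and 2.86 counts per 1000000 (CPM) in the OSKM libraries of clones 1, 2 and 3, against 0 to 0.468 in the MEF libraries, so that clone 3 had the lowest level of the 3 induced clones. Sox2 showed the same order, at 15.5, 13.3 and 2.33 CPM against 0.379 to 0.658. Transcripts of the transgene and of the endogenous gene were not separated. Fibroblast markers summed to between 88690 and 142300 CPM with none of the 12 at 0 in any library. Macrophage markers (14 genes) summed to between 1368 and 3456 CPM, and muscle markers to at most 8.71 CPM. In bulk RNA, fewer cells of a type and less RNA per cell cannot be told apart.

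The ER lumen receives secreted and membrane proteins through the Sec61 channel. Chaperones such as BiP, encoded by Hspa5, and GRP94, encoded by Hsp90b1, hold nascent chains, lectin chaperones retain glycoproteins, and disulfide isomerases pair their cysteines. Chains that fail to fold are returned to the cytosol and degraded. Fibroblasts are known for a large procollagen load, which also needs prolyl and lysyl hydroxylases in the ER and the collagen chaperone HSP47, encoded by Serpinh1. When unfolded chains accumulate, the sensors encoded by Atf6, Ern1 and Eif2ak3 start the unfolded protein response, and the cleaved ATF6 and spliced XBP1 proteins raise transcription of many chaperone genes, in part through the ER stress response element (ERSE).

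The promoters were read from RefSeq (GRCm38.p6) as windows from 250 bases before to 50 bases after each annotated start, which 32 of the 39 genes had. The exact ERSE, written as CCAAT, 9 bases of any kind and then CCACG, was searched on both strands. It was present in the windows of 9 of these 32 genes (28.1%) and of 37 of all 27025 genes with a window (0.137%). Of the 9 lumenal chaperones and partners with a window, 6 held it, as did Pdia6, Derl3 and Syvn1, and none of the 9 collagen maturation genes with a window did. The sites are printed below as the motif reads, with its fixed letters in capitals, because they mark the members that share this element.
Hspa5 (chr2:34772025-34772043): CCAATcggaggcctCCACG
Hsp90b1, farther site (chr10:86705638-86705656): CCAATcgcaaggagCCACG
Hsp90b1, nearer site (chr10:86705533-86705551): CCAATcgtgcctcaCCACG
Calr (chr8:84847075-84847093): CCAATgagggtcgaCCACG
Canx (chr11:50325800-50325818): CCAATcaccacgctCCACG
Creld2 (chr15:88819520-88819538): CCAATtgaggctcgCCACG
Dnajc3 (chr14:118937827-118937845): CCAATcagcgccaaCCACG
Pdia6 (chr12:17266491-17266509): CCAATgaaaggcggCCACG
Derl3 (chr10:75893242-75893260): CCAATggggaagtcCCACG
Syvn1 (chr19:6046532-6046550): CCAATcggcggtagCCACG
The 2 Hsp90b1 sites begin 212 and 107 bases before its start. The single sites begin between 162 bases before the start, in Calr, and 44 bases before it, in Syvn1. The sites of Calr, Creld2 and Derl3 and the nearer one of Hsp90b1 lie on the strand opposite to the gene.

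A second element, ERSE-II, written as ATTGG, 1 base of any kind and then CCACG, was in the windows of 2 of the 32 genes (6.25%) and of 12 of all 27025 genes (0.0444%). Its first match lay 52 bases before the start of Herpud1, and the other began 8 bases past the start of Dnajb11. The 8 letters TGACGTGG, the core of the unfolded protein response element bound by XBP1, matched in none of the 32 windows, against 0.714% of all genes with a window.
Herpud1 (chr8:94386377-94386387): ATTGGgCCACG
Dnajb11 (chr16:22857852-22857862): ATTGGcCCACG

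Neither Sdf2l1 nor Edem1, the members with the largest B12 differences on the log2 scale when averaged over state, held an exact ERSE or ERSE-II in its window. Both windows held the outer 5 letters of the element, CCAAT and CCACG, apart from each other. The 250 bases before each start are shown with each CCAAT and each CCACG, on either strand, in capitals, so that they can be compared with the sites above. The Sdf2l1 stretch is chr16:17132384-17132633 on the minus strand and that of Edem1 is chr6:108828391-108828640 on the plus strand.
Sdf2l1: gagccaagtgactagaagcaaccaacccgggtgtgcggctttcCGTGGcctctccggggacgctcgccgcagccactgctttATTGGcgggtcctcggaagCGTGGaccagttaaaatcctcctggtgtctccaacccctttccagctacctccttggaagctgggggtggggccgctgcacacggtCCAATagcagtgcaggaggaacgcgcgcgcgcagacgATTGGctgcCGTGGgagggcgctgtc
Edem1: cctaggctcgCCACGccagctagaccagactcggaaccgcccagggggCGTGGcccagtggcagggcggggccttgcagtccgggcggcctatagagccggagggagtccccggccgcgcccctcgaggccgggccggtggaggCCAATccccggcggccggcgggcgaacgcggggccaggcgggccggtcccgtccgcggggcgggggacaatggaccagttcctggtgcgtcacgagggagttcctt
CCAAT was present 3 times before the Sdf2l1 start and 1 time before the Edem1 start, and CCACG 3 and 2 times. These short words are common, since CCAAT was in the windows of 41.1% of all genes and CCACG in those of 35.5%. A match of letters is a description of the window and not a measured binding site.

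Levels per length, in CPM per kilobase of exon (FPKM), spanned a wide range. Serpinh1 was the highest of the 39, with a mean of 1209 FPKM over the 12 libraries and rank 16 among the 19174 tested genes. It was followed by P4hb, both a disulfide isomerase and the beta subunit of prolyl 4-hydroxylase, at 453 FPKM, by calreticulin (Calr) at 419, by Pdia3 at 328, by Hsp90b1 at 234 and by Hspa5 at 214. The ranges over libraries of P4hb and Calr overlapped, at 407 to 492 and 369 to 471 FPKM, as did those of Hsp90b1 and Hspa5, whereas Serpinh1 at 1038 to 1389 FPKM lay above every other member in each library. Sdf2l1 and Edem1 were in the lower part of the set, at 15.1 and 14.2 FPKM. The sensors were lower still, with Eif2ak3 (PERK) at 11.4, Atf6 at 5.72 and Ern1 (IRE1α) at 2.54 FPKM. Derl3, a derlin known from secretory cells, had between 5 and 30 read pairs in a library and 0.126 FPKM, and its differences below rest on these few reads.

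**Figure D1:**
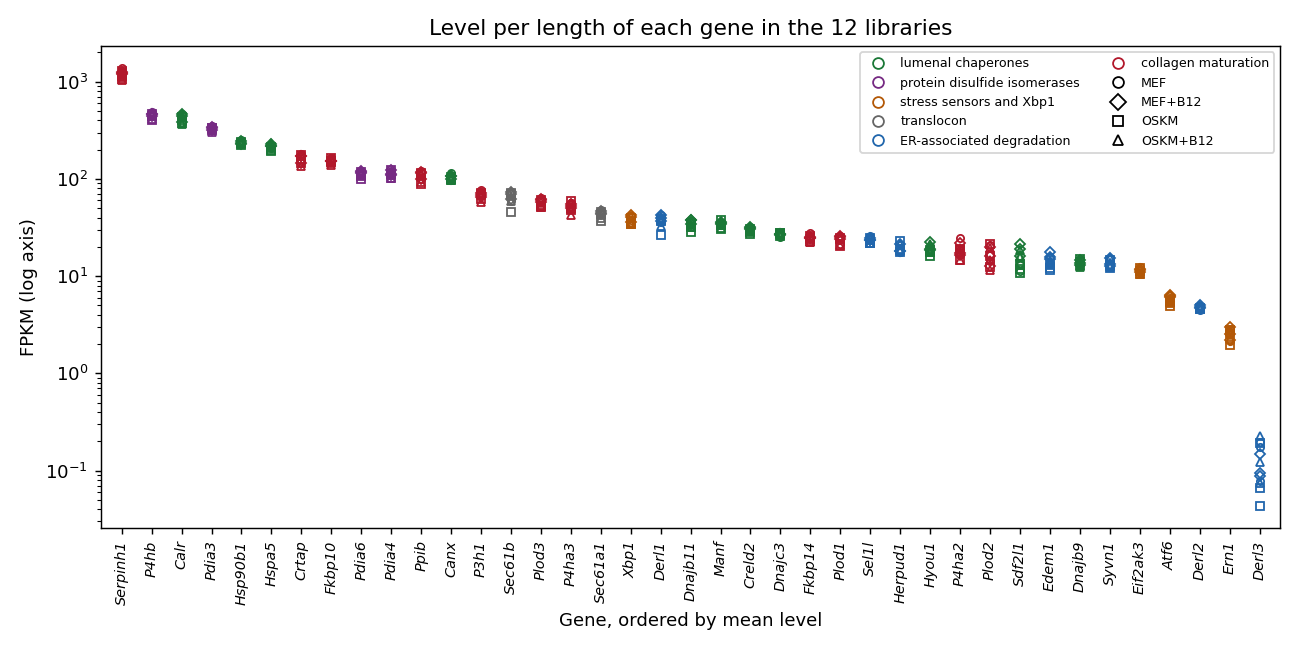
Level of each of the 39 genes in FPKM (log axis) in each of the 12 libraries, ordered by the mean, with colours for roles and marker shapes for the 4 groups. Serpinh1, at a mean of 1209 FPKM, stands above the others, and Derl3, at 0.126 FPKM, below them; for nearly all genes the 12 points lie close together beside the differences between genes.

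The first question was what B12 did to these genes in uninduced and in induced cells. Averaged over the 2 states, 1 of the 39 members passed an adjusted p of 0.05 (edgeR quasi-likelihood test with clone as a block, Benjamini-Hochberg over all genes), and it was higher. Of all genes tested, 3.84% passed in this comparison and 3.46% passed as higher, so that the share of the members (2.56%) was not above the background. The gene was Sdf2l1. The median log2 fold change of the 39 members was -0.01, as it was for all genes tested (-0.01).

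Sdf2l1 encodes an ER-resident partner of the DnaJ co-chaperones, in particular of that encoded by Dnajb11, and the gene lies on chr16:17130138-17132383 (GRCm38, minus strand). In uninduced cells it was at 15.0, 14.4 and 12.6 CPM in clones 1, 2 and 3 without B12, and at 24.0, 21.1 and 18.02 CPM with B12. In induced cells it was at 14.8, 11.98 and 12.98 CPM without B12, and at 20.5, 17.8 and 17.4 CPM with it. All 6 B12 libraries lay above all 6 libraries without B12. B12 took the group mean from 14.0 ± 1.24 to 21.04 ± 2.99 CPM (SD, n = 3) in uninduced cells and from 13.3 ± 1.42 to 18.6 ± 1.69 CPM in induced cells. The averaged log2 fold change was 0.53 ± 0.05 (SE; 1.45-fold; 95% interval 0.42 to 0.64; edgeR, adjusted p = 0.00027). In uninduced cells alone it was 0.58 ± 0.07 (adjusted p = 0.00398) and in induced cells alone 0.48 ± 0.07 (adjusted p = 0.0111). Sdf2l1 was the only one of the 39 to pass in either, where 1.38% and 1.06% of all genes tested passed. Sdf2l1 was higher with B12 in each of the 6 pairs of libraries of 1 clone, from 0.42 to 0.67 on the log2 scale. Here and below, each clone gave 2 of the 6 pairs, so they are not 6 independent replicates. Leaving out any 1 clone kept the averaged call, with a log2 fold change of 0.51 to 0.58 and adjusted p of 0.00469 to 0.033. Within induced cells the call was lost without any 1 of the clones (adjusted p 0.0624, 0.384 and 0.0795 without clones 1, 2 and 3), and in uninduced cells without clone 2 (0.195), while the log2 differences stayed between 0.44 and 0.63.

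The other 10 lumenal chaperones and partners did not pass. Hyou1, the large ER member of the HSP70 superfamily that acts as a nucleotide exchange factor for BiP, came next. In uninduced cells it was at 146, 135 and 129.7 CPM without B12 and at 162.5, 135 and 136.5 with it, in clone order. In induced cells it was at 135, 115 and 127 CPM, and with B12 at 154, 129 and 133. The groups overlapped in both states. The averaged difference was 0.11 ± 0.03 on the log2 scale (95% interval 0.03 to 0.18; edgeR, adjusted p = 0.143). Hspa5 and Dnajb11 were higher with B12 in 6 of 6 pairs but by little, with averaged log2 differences of 0.08 (95% interval -0.01 to 0.17) and 0.09 (0.01 to 0.16) and edgeR adjusted p of 0.381 and 0.264. Hsp90b1, Canx, Dnajc3, Dnajb9, Calr, Manf and Creld2 differed by -0.04 to 0.06. Beside the 0.53 of Sdf2l1, its partner Dnajb11 thus differed by 0.09. Over the 9 members with an exact ERSE the median B12 difference was 0.02, against -0.02 over the 23 genes whose window held none.

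**Figure D2:**
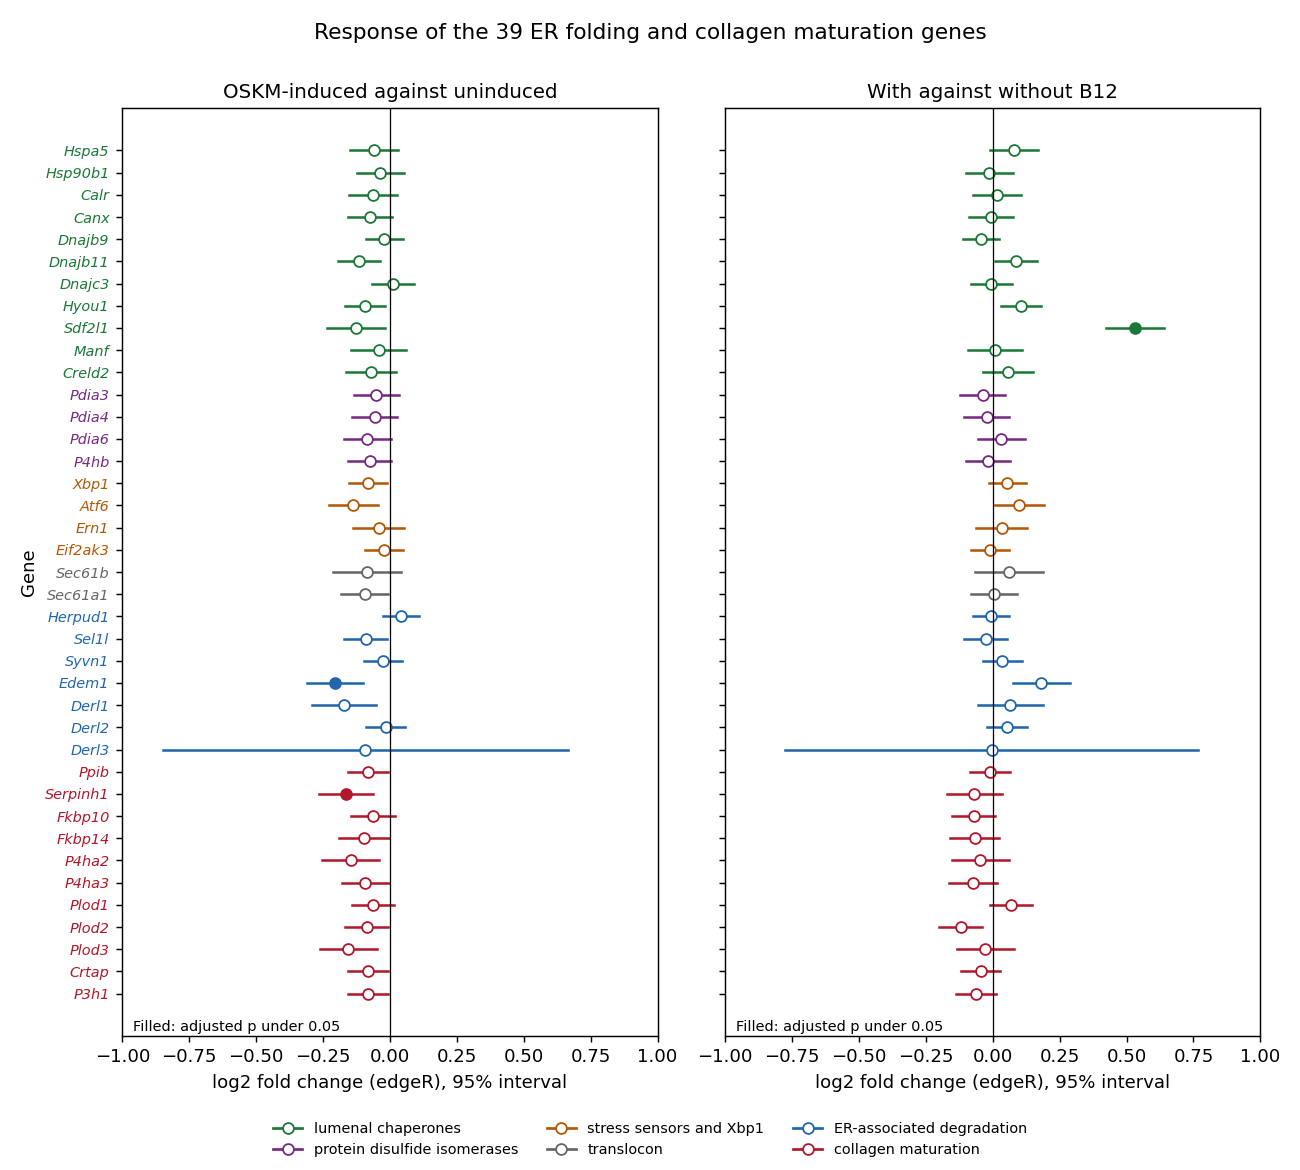
Log2 fold changes from edgeR with 95% intervals for the 39 genes, ordered and coloured by role. The left panel gives induced against uninduced cells averaged over B12, the right panel B12 against no B12 averaged over state, and filled points passed an adjusted p of 0.05; Sdf2l1 at 0.53 stands alone on the right, while 37 of 39 points on the left lie below 0, Edem1 at -0.21 lowest.

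Among the degradation genes, Edem1 was the nearest to a call. It encodes a mannosidase-like protein that directs misfolded glycoproteins to degradation, on chr6:108828641-108859356 (plus strand). In uninduced cells it was at 103, 88.7 and 85.2 CPM without B12 and at 113, 101 and 97.6 CPM with it, in clone order. In induced cells it was at 78.6, 75.5 and 83.5 CPM without B12 and at 89.96, 87.0 and 94.4 CPM with it. The induced groups did not overlap and the uninduced ones did, since clone 1 was higher than the other clones throughout the uninduced libraries. Edem1 was higher with B12 in 6 of 6 pairs, by 0.14 to 0.20 on the log2 scale. The averaged difference of 0.18 ± 0.05 (95% interval 0.08 to 0.29) missed the threshold (edgeR, adjusted p = 0.066), although 4 of 11 other settings of the fit passed it. A fit with a separate block for each clone and state gave an adjusted p of 0.0026. The ubiquitin ligase gene Syvn1 and the derlin genes Derl1 and Derl2 differed by 0.04, 0.07 and 0.05, and Sel1l and Herpud1, whose products act beside that ligase, by -0.03 and -0.01, none with a call. Derl1 was higher with B12 in 6 of 6 pairs, but in uninduced cells by at most 0.04.

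Of the sensors, Atf6 had the largest B12 difference. Uninduced clones 1, 2 and 3 held 51.6, 55.5 and 51.2 CPM, and 56.8, 57.9 and 58.8 with B12. Induced clones held 49.9, 45.5 and 51.8 CPM, and 48.3, 52.2 and 53.9 with B12. The uninduced groups did not overlap, and the induced ones did, with clone 1 lower with B12. The averaged log2 difference was 0.10 ± 0.04 (edgeR, adjusted p = 0.27). Xbp1, which encodes a transcription factor activated by IRE1-dependent splicing, was 0.06 higher, Ern1 0.03 higher and Eif2ak3 0.01 lower, with adjusted p of 0.452, 0.755 and 0.927 in the same edgeR fit. Gene counts do not separate spliced from unspliced Xbp1. The 4 disulfide isomerases lay between -0.04 and 0.03, and the Sec61 subunits at 0.01 and 0.06.

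The collagen maturation genes lay on the other side of 0. With B12, 10 of the 11 were lower in the averaged fit, with a median log2 difference of -0.06 and a range of -0.12 to 0.07, where all genes tested had a median of -0.01 and 44.9% were higher. None of the 11 passed. Across 11 other settings of the fit, between 8 and 10 of the 11 were lower. Plod2, a lysyl hydroxylase that acts on collagen telopeptides, had the largest difference. Its levels in clones 1, 2 and 3 were 90.4, 77.9 and 113.5 CPM in uninduced cells and 86.01, 69.2 and 108 CPM after B12. The induced cells had 87.7, 67.03 and 117 CPM, and 78.5, 62.8 and 106 CPM after B12. The groups overlapped because the clones were far apart, with clone 3 highest and clone 2 lowest in every group, but B12 was lower in 6 of 6 pairs. The averaged log2 difference was -0.12 ± 0.04 (95% interval -0.20 to -0.04; edgeR, adjusted p = 0.125, and 0.0401 with a block for each clone and state). Serpinh1, Fkbp10, Fkbp14, P4ha3 and P3h1 were also lower with B12 in 6 of 6 pairs, and Plod1, a lysyl hydroxylase of collagen helices, was the 1 gene of the group that was higher, by 0.07 and in 6 of 6 pairs. Over the whole set, 7 members were higher and 7 were lower with B12 in 6 of 6 pairs. The share of all genes tested that did so was not counted, so these counts only describe the members.

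Markers of other cells moved with the same factor. Macrophage markers were higher with B12 for 13 of 14 genes, 12 of them past an adjusted p of 0.05 by edgeR, with a median log2 difference of 0.56. Their sum ranged from 1368 to 2609 CPM in uninduced cells and from 2064 to 3456 CPM when B12 was added, and from 1405 to 2400 CPM in induced cells against 2159 to 2807 CPM with B12. None of the 14 was at 0 in any library. All 12 fibroblast markers were lower with B12, 1 of them past the threshold, with a median of -0.11. The part of either in the Sdf2l1 difference, or in the lower collagen maturation genes, was not tested.

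**Figure D3:**
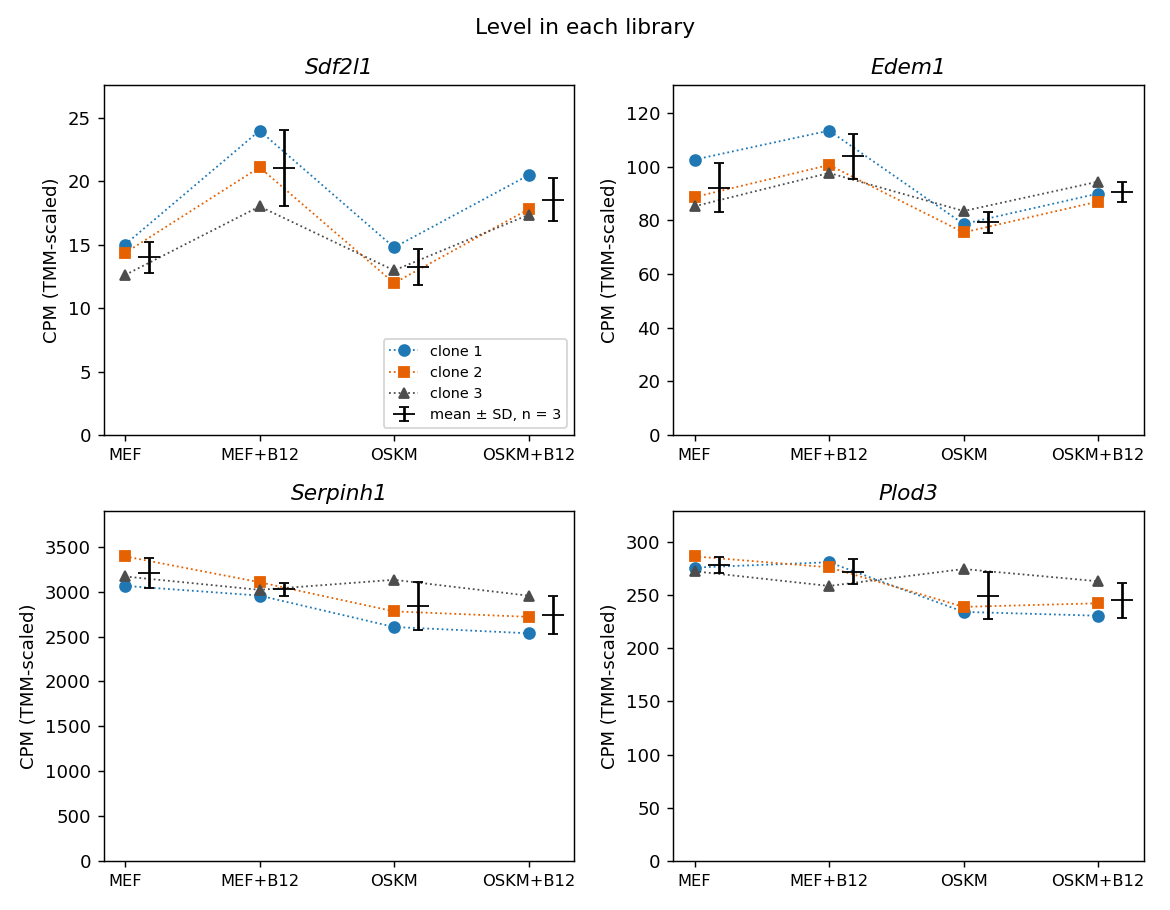
CPM of Sdf2l1, Edem1, Serpinh1 and Plod3 in each library, with 1 symbol and dotted line per clone across the 4 groups and the mean ± SD (n = 3) in black; the axes start at 0. Both B12 groups are above their partners for Sdf2l1 in every clone, and for Serpinh1 and Plod3 the induced libraries of clones 1 and 2 lie below those of clone 3.

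The second question was what induction did. Averaged over B12, 37 of the 39 genes were lower in induced cells and 2 were higher (Herpud1 by 0.04 and Dnajc3 by 0.01, neither past the threshold), while 49.1% of all genes tested were higher. The differences were small, with a median of -0.08 on the log2 scale and a range of -0.21 to 0.04, against a median of -0.00 over all genes. With library totals in place of TMM, 30 of the 39 were lower and their median was -0.04, and without clone 2, 33 were lower with a median of -0.05. By edgeR, 2 members passed an adjusted p of 0.05, both lower, where 9.73% of all genes tested passed and 5.26% passed as lower. The share of members, 5.13%, was therefore not above the background. At an unadjusted p under 0.05, 18 of the 39 (46.2%) were lower and none was higher, against 14.3% of all genes tested lower and 12.6% higher. Members share regulation and libraries, and all genes tested were not matched to them for level, so these shares are descriptions. With B12 absent, no member passed by edgeR or DESeq2, and 0.073% of all genes did by edgeR. At an unadjusted p under 0.05 the members numbered 7, all lower, against 9.92% of all genes tested lower. With B12 present, again none passed by either tool, and 0.104% of all genes did, while 6 members had an unadjusted p under 0.05, all lower, against 8.17% of all genes.

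The 2 genes that fell were Edem1 and Serpinh1. For Edem1, with the values given above, the log2 fold change was -0.21 ± 0.05 (0.867-fold; 95% interval -0.31 to -0.10; edgeR, adjusted p = 0.0284), and it was lower in 6 of 6 pairs. Each clone gave 2 of these pairs, and the averaged fit entered both, so the 6 pairs are not independent replicates. Induced and uninduced libraries did not overlap at either B12 level. Edem1 thus had differences of opposite sign for the 2 factors, of which that for B12 did not pass. Its level in OSKM+B12 (90.5 ± 3.72 CPM) was near that in MEF (92.2 ± 9.20 CPM), and these groups were not tested against each other. Serpinh1, on chr7:99345376-99353239 (minus strand), was at 3065, 3394 and 3170 CPM in uninduced clones 1, 2 and 3, and with B12 at 2957, 3106 and 3021 CPM. After induction it was at 2607, 2781 and 3133 CPM, and with B12 at 2537, 2720 and 2956 CPM. The groups with B12 did not overlap, by a margin of 2957 against 2956 CPM, and those without B12 did, through clone 3. Its log2 fold change was -0.16 ± 0.05 (0.893-fold; edgeR, adjusted p = 0.049). Both calls were lost without clone 1 (adjusted p 0.268 for Edem1 and 0.346 for Serpinh1), without clone 2 (0.426 and 0.468) and without the single OSKM library of clone 1 (0.0586 and 0.0872), and both held without clone 3 (0.00445 and 0.0084). Calls over all genes moved in the same way. They numbered 1865 in the main fit, 10 without clone 1, 3 without clone 2, 771 without that library and 3056 without clone 3. Serpinh1 also missed the threshold when libraries were scaled by their totals (adjusted p 0.07) or when every library had to hold at least 10 counts (0.055), and without the clone block both genes did (0.202 for Edem1 and 0.326 for Serpinh1).

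The remaining collagen maturation genes followed the same direction. All 11 were lower in induced cells, by 0.06 to 0.16 on the log2 scale, and 10 of them missed the threshold. Plod3, a bifunctional lysyl hydroxylase and glucosyltransferase, was at 276, 286 and 272 CPM before and 234, 239 and 274.5 CPM after induction. With B12 these were 281, 276 and 259 CPM before and 231, 242 and 263 CPM after it. In clones 1 and 2 the induced libraries were lower and in clone 3 they were level. The averaged log2 difference was -0.16 ± 0.05 (edgeR, adjusted p = 0.0648). P4ha2, a catalytic subunit of prolyl 4-hydroxylase, was at 104, 154 and 115 CPM in the uninduced and 91.3, 119 and 115 CPM in the induced clones. With B12 it was at 104, 137 and 109 CPM in the uninduced and 91.5, 121 and 111 CPM in the induced ones. It also fell short, at -0.15 ± 0.05 (adjusted p = 0.0781 by edgeR). P3h1, Crtap and Ppib, which encode the 3 parts of the prolyl 3-hydroxylation complex, were each 0.08 lower without a call.

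Among the sensors and the degradation genes, Atf6 was 0.14 ± 0.04 lower on the log2 scale in induced cells (edgeR, adjusted p = 0.0604) and did not overlap in the presence of B12, where it was lower in all 3 clones. Derl1, a component of the retrotranslocation machinery, was at 119.8, 140.3 and 129 CPM in uninduced and 87.5, 121.5 and 128 CPM in induced clones 1, 2 and 3. With B12 it was at 121.5, 141 and 132 CPM, against 109, 122 and 131 CPM after induction. The OSKM library of clone 1 was the lowest of the 12. The averaged difference was -0.17 ± 0.05 (edgeR, adjusted p = 0.0692). Sec61b showed its lowest value in the same library, 58.2 CPM against 75.9 to 93.8 in the other 11. Both transcripts share sequence with other genes: of the 31-base words of the gene's exons, 23.5% of those of Sec61b and 8.6% of those of Derl1 also occurred in another gene, where no other member but Ppib and Dnajb9 passed 4.1%. Dnajb9, with a share of 10.8%, was not low in that library (35.3 CPM, against 34.1 CPM in the MEF library of clone 1). Ppib, with a larger share, had its lowest level there (292.6 CPM, against 333.7 CPM in the MEF library of clone 1). The part of shared sequence in these levels was not tested. How many reads were shared between genes was not measured.

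The lumenal chaperones had a median of -0.06, and 10 of the 11 were lower. Without clone 2, 7 were lower with a median of -0.0027, with library totals as the scaling 7 were lower with a median of -0.02, and without clone 3 all 11 were lower with a median of -0.10. Dnajb11 had the lowest adjusted p among them (-0.11 ± 0.04, adjusted p = 0.0648 by edgeR). Sdf2l1, with the levels given above, was 0.18 ± 0.07 lower in induced cells when B12 was present (edgeR, adjusted p = 0.26) and missed the threshold. Hspa5 was at 927, 922 and 873.5 CPM in the uninduced clones and 827, 832 and 897 CPM in the induced ones. With B12 these levels were 959.8, 927 and 927 CPM and 980.2, 880.7 and 904 CPM. The groups overlapped in both comparisons, and its averaged difference of -0.06 had a 95% interval of -0.15 to 0.03. The induction difference of the 4 disulfide isomerases lay between -0.09 and -0.05. Dnajc3 and Herpud1, both known targets of the unfolded protein response, had 95% intervals of -0.07 to 0.09 and -0.03 to 0.11. Herpud1 had 48.95, 41.5 and 41.8 CPM in uninduced and 53.6, 44.5 and 41.4 CPM in induced cells without B12, then 49.98, 42.6 and 42.1 CPM and 49.95, 43.5 and 42.1 CPM in the same cells with B12, with clone 1 highest in every group.

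Markers of cell types moved with induction as well. The fibroblast markers summed to 116800 to 142300 CPM in uninduced and 88690 to 117500 CPM in induced cells, and with B12 to 113300 to 114700 and 94250 to 105100 CPM. Most of the sum was Col1a1 and Col1a2. In clone 1 without B12 they were at 37880 and 30890 CPM of 116800 before induction, and at 25440 and 22610 CPM of 88690 after it. Of the 12, 7 were lower and 5 higher, with a median log2 difference of -0.06, and 4 passed as lower (Col1a1, Col1a2, Pdgfra and Pdgfrb). Of the 14 macrophage markers, 11 were lower and 3 passed as lower (Csf1r, Adgre1 and Aif1), with a median of -0.20. Of the 6 endothelial markers, 3 were tested and 2 passed as higher (Cdh5 by 1.22 and Tek by 1.26 on the log2 scale). The endothelial sum was 41.9 to 46.6 CPM in MEF libraries, and 144.9, 124.7 and 53.04 CPM in the OSKM libraries of clones 1, 2 and 3. The 6 epithelial markers summed to at most 1.81 CPM in uninduced libraries, and to 11.44, 8.20 and 1.28 CPM in the OSKM libraries of clones 1, 2 and 3. Their part in the lower levels of Edem1, Serpinh1 and the other members was not tested.

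The clones differed in how far these genes moved. Without B12, 31 of 39 genes were lower in the OSKM library than in the MEF library of clone 1 and 37 of 39 in clone 2, with medians of -0.08 and -0.17 on the log2 scale, but 13 of 39 in clone 3, with a median of 0.01. With B12 the counts were 33, 34 and 24 of 39, with medians of -0.10, -0.12 and -0.01. The median over all genes tested stayed between -0.02 and 0.00 in these 6 pairs. Edem1 fell by 0.38, 0.23 and 0.03 in clones 1, 2 and 3 without B12 and by 0.33, 0.21 and 0.05 with it. Serpinh1 fell by 0.23, 0.29 and 0.02 without B12 and by 0.22, 0.19 and 0.03 with it. Plod3 differed by -0.24, -0.26 and 0.01 and by -0.28, -0.19 and 0.02. Clone 3 was also the clone with the lowest Pou5f1 and Sox2 after induction, and the part of that level in the smaller differences was not tested.

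**Figure D4:**
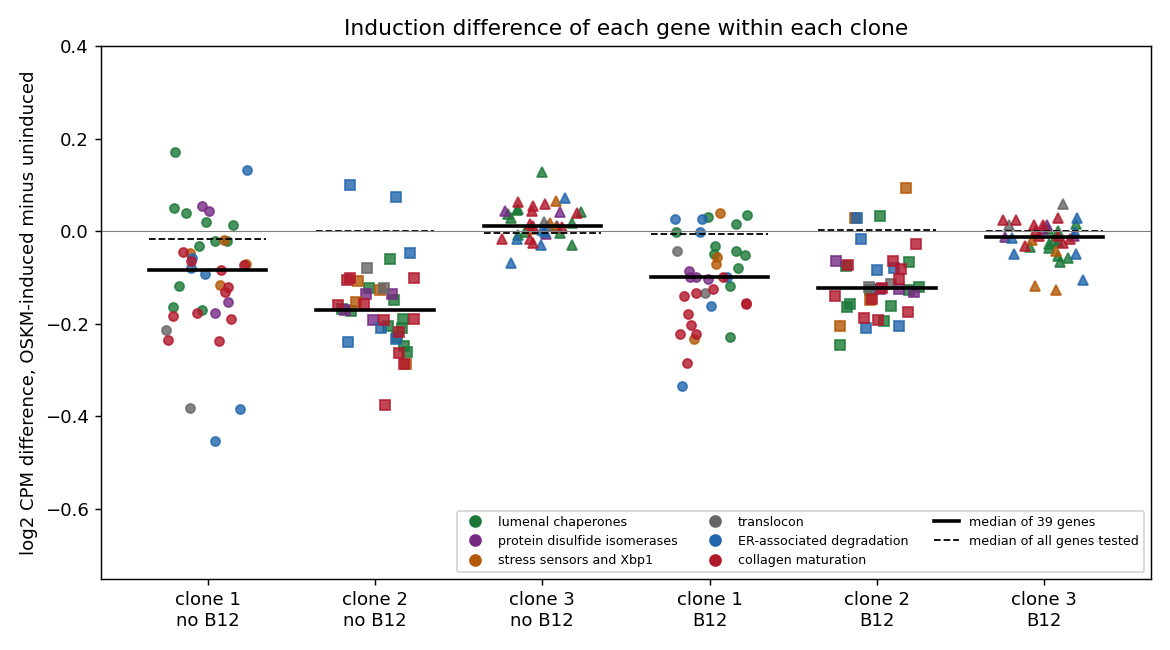
Log2 CPM difference between the induced and the uninduced library of the same clone for each gene, without and with B12, coloured by role. Derl3 is left out of the points for its few reads; thick lines give the median of the 39 genes and dashed lines that of all genes tested, and the thick line lies below the dashed one in clones 1 and 2 and close to it in clone 3.

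A test of whether the induction response differed between clones (F test on the clone-by-state terms, edgeR) passed for none of the 39, and for 2.15% of all genes tested. At an unadjusted p under 0.05 the members numbered 10 (25.6%), against 14.8% of all genes tested. Edem1 had the smallest value (unadjusted p = 0.00175, adjusted p = 0.0656), followed by Plod3 (adjusted p = 0.114) and P4ha2 (0.156), all by the same edgeR fit. Edem1 and Serpinh1 passed this test once the OSKM library of clone 1 was left out, and P4ha2 and Serpinh1 without all of clone 1. More of all genes passed in these fits too, 838 of 19499 and 724 of 19102, against 413 of 19174 in the main fit.

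Whether B12 changed the induction response was tested by the interaction of the 2 factors. None of the 39 members passed, nor did any other gene tested (0% by edgeR), and 273 genes (1.42%) but no member had an unadjusted p under 0.05. DESeq2 called no member either. Derl3 was at 0.156, 0.348 and 0.394 CPM in uninduced clones 1, 2 and 3 and at 0.134, 0.0865 and 0.385 CPM in induced ones. With B12 it was at 0.188, 0.293 and 0.177 CPM and at 0.147, 0.450 and 0.246 CPM, with all groups overlapping. The smallest unadjusted p belonged to it (0.259), but its difference of 0.82 rested on 5 to 30 read pairs and had a 95% interval of -0.70 to 2.33. Ern1 was at 17.5, 23.1 and 22.9 CPM in uninduced clones and 16.2, 20.8 and 23.01 CPM in induced ones. With B12 it was at 17.9, 20.7 and 24.5 CPM and at 18.4, 22.02 and 22.6 CPM. The groups overlapped, and its interaction of 0.09 had a 95% interval of -0.10 to 0.28. For Herpud1 it was -0.06 (-0.20 to 0.07), and for Sdf2l1, which had called B12 differences in both states, -0.10 (-0.32 to 0.12).

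Genes of the same pathway outside the 39 give the setting. For induction averaged over B12, 9.73% of all genes tested passed an adjusted p of 0.05 by edgeR and 5.26% passed as lower. Of 28 other ER folding genes, 21 were lower in induced cells and 2 passed, Qsox1 (-0.26), a secreted sulfhydryl oxidase, and Tmx4 (-0.24), a membrane-bound thioredoxin-like protein. Of 16 other degradation genes, 15 regulators and PERK targets and 24 genes of translocation and N-glycosylation, none passed by edgeR for induction, and 4, 6 and 4 had an unadjusted p under 0.05, all lower, where 14.3% of all genes tested were lower at that p. Among 11 collagen chains, the clients of the machinery, all 11 were lower with a median of -0.19 and 5 passed, Col12a1 (-0.40) and Col1a1 (-0.35) by the largest amounts. Of 25 other genes of collagen modification, export and processing, 6 passed as lower, among them the lysyl oxidase-like enzymes Loxl4 (-0.35) and Loxl3 (-0.27) and the procollagen N-proteinase Adamts14 (-0.20), and 1 as higher, Pcolce2 (0.50), which encodes a procollagen C-proteinase enhancer. The median of the 11 collagen maturation genes was -0.09, and no test compared the lists. Col1a1 and Col1a2 are also among the fibroblast markers.

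With B12, 2 of these other genes passed in the averaged fit, where 3.84% of all genes tested passed. Sec11c, a catalytic subunit of the signal peptidase that trims proteins entering the ER, was at 18.2, 16.8 and 14.3 CPM in uninduced clones 1, 2 and 3, and with B12 at 22.3, 24.6 and 19.5 CPM. In induced cells it was at 16.2, 16.5 and 13.9 CPM without B12 and at 21.3, 20.2 and 20.7 with it. As for Sdf2l1, every B12 library lay above every library without it. Its averaged log2 fold change was 0.43 ± 0.05 (edgeR, adjusted p = 0.000944), and it also passed in each state alone (adjusted p 0.0177 in uninduced and 0.0234 in induced cells). Uggt2, a paralogue of the glycoprotein folding sensor, was lower (-0.19, adjusted p = 0.0364 by edgeR). None of the 11 collagen chains passed for B12, with all 11 lower and a median of -0.11.

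The members also differed in how they varied between libraries of the same group. As a description over the 12 libraries, which share clones, the deviations of Creld2, Hsp90b1 and Atf6 from their group means followed the mean deviation of the lumenal chaperones (a member was left out of its own mean) with r = 0.91, 0.75 and 0.71. Those of Sdf2l1 did not (r = -0.05), nor did those of Hyou1 (-0.01), Herpud1 (-0.22) or Syvn1 (-0.27). Among 11902 genes outside the set, the deviations of Hspa4l, a cytosolic HSP110-type chaperone, were most like that mean (r = 0.94), followed by Arhgap29 (0.93) and Cers6 (0.93).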

How the data were processed

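Values were read from the table of raw counts that the authors deposited, with 1 column for each of 12 libraries. Per the labels and the study's methods, poly(A) RNA libraries that keep strand were sequenced as read pairs, aligned to mm10 (GRCm38) with STAR (2.5.2 in the submitters' processing notes), and counted per Ensembl gene on the antisense setting with featureCounts; flow cell runs of 1 library were added. Gene symbols were matched through GENCODE M21 for 55480 of 55573 genes.

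Counts were tested with edgeR 4.0.16 (R 4.3.3): filterByExpr by group, TMM, and the quasi-likelihood F test with clone as a block and the 4 groups, over 19174 genes, with Benjamini-Hochberg adjustment. The clone test added the clone-by-state product and a B12 term in each state. CPM use TMM-scaled totals (factors 0.934 to 1.07), log2 CPM a prior count of 2. Same-numbered libraries come from the same embryo's MEFs, and their deviations from group means correlated at 0.27 to 0.687 (18 pairs). With clone as a block, p-values measure the spread between libraries that remains once the level of each of these 3 embryos is removed. In the averaged comparisons, both differences of a clone entered as separate values. Spread between embryos in a response is therefore not fully counted there. Scripts were tested on simulated data that held no differences between clones, which cannot show how the tests behave where clones respond differently. DESeq2 1.42.0, other scalings, filters and blocks, and leaving out libraries were tried.

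The 39 members and the other gene lists were chosen with earlier results of these data known. Given in full were members past an adjusted p of 0.05 and, where fewer than 3 passed, the 3 with the smallest p in each comparison; other members were named to complete their role, after their values were seen.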

Additional observations from a re-analysis of the deposited data

How the results depend on the processing

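Counts of members called moved with the fit, and the cause was not tested. For induction averaged over B12, 2 members passed, as did 1865 of 19174 genes tested. With DESeq2 7 members passed (2465 genes), and without a filter on low counts 4 (2552 of 33090 genes). With library totals as the scaling 1 passed (2128 genes). With at least 10 counts in every library 1 passed (Edem1, with Serpinh1 lost, and 1708 of 16863 genes). Without the replicate block 0 members and 0 genes passed. Leaving out libraries gave 0 to 9 members. Without clone 3, 9 passed (3056 of 19231 genes). None passed without clone 1 (10 of 19102 genes), clone 2 (3 of 19314) or the OSKM library of clone 1 (771 of 19499). The calls over all genes thus moved as well, and the moves are not particular to the members. For B12 averaged over state (1 member), 2 passed with DESeq2, 3 with library totals, 2 with no filter and 3 with a replicate block for each clone and state (Sdf2l1, Edem1 and Plod2), and 1 in every fit that left out a clone or library. Over all genes, 736 passed in the main fit, 911 with DESeq2, 881 with library totals, 829 with no filter and 1081 with that block. Leaving out a clone or library gave 34 to 785 genes. For B12 in OSKM alone (1), 0 passed without the replicate block, 2 with the block split by state, and 0 to 1 on leaving out libraries. Over all genes the main fit gave 204, and the same 3 gave 0, 344 and 0 to 224. For B12 in MEF alone (1), the same 3 gave 0, 2 and 0 to 1 members, and 2 passed when only the groups compared were fitted. Over all genes the main fit gave 264, and these 4 gave 0, 443, 0 to 334 and 845. For induction without B12 (0) leaving out libraries gave 0 to 4, with B12 (0) 0 to 2, both highest without clone 3, and for the clone test (0) 0 to 2, with 1 in the absence of a filter. Without clone 3, 1322 and 1004 of 19231 genes passed for induction without and with B12, against 14 and 20 in the main fits. In the clone test 1257 of 33090 genes passed in the absence of a filter, against 413 in the main fit. Without the replicate block, so without the pairing by clone, Sdf2l1 still passed for the averaged B12 difference (0.54, adjusted p 0.0352 by edgeR), and no other member passed in any comparison. The interaction gave 0 under each setting run.

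None of 21 log2 fold changes of the members given in full changed sign under the settings run (233 values, of which 16 lost and 12 gained a call). The number of members lower after induction (37) ranged from 30 to 37 and their median (-0.08) from -0.11 to -0.04. With 3 clones, the 95% interval of the averaged induction difference of Hspa5 still ran from -0.15 to 0.03 on the log2 scale.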
